A study of Homo sapiens with 3 samples.

Results

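The genes described here are 10 members of the hypoxia-inducible factor (HIF) pathway, HIF1A, EPAS1, ARNT, VHL, EGLN1, EGLN2, EGLN3, CA9, BNIP3 and VEGFA, out of 62754 genes in the deposited table. They were taken by name, through the GENCODE release 44 identifiers of these symbols, and the rule itself uses no measured value. RNA was sequenced from 3 replicates of MCF10A, a line of breast epithelial cells that divides without limit but does not form tumors, at 27 h after seeding. All 3 replicates carry the retroviral Retro-X Tet-One vector, a doxycycline-inducible expression system, left empty of any insert, and by the series' design text and labels they were puromycin-selected and received neither doxycycline nor another treatment. The labels put all of them in batch 1 and do not say whether they are separate cultures, and the oxygen level of the culture is not given in the sources used here. There is thus 1 condition and no comparison between groups, and the spread between replicates may be technical.

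In oxygenated cells the HIF alpha subunits are hydroxylated on proline by the EGLN enzymes, bound by the VHL protein and sent to the proteasome. When oxygen falls, hydroxylation slows, the alpha subunits accumulate, pair with ARNT and bind hypoxia response elements near their target genes. This control acts on the protein, so the RNA level of an alpha subunit does not give the activity of the pathway. CA9, BNIP3, VEGFA, EGLN1 and EGLN3 are known targets, of which CA9 is widely used as a marker of hypoxic epithelial cells.

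Because the members include such targets, their promoters are shown before their values, over 250 bases before and 50 bases after the RefSeq start site on GRCh38.p14. By symbol, 8 of the 10 genes were matched, all but VHL and VEGFA, and HIF1A and EGLN2 have a window for each of their start sites, which gives 10 windows. The core letters of the response element, ACGTG and GCGTG, were searched on both strands and are in capitals below. CACGTG holds ACGTG on both strands and is found as a pair of matches. The windows shown are those of the 4 targets with an entry.
CA9: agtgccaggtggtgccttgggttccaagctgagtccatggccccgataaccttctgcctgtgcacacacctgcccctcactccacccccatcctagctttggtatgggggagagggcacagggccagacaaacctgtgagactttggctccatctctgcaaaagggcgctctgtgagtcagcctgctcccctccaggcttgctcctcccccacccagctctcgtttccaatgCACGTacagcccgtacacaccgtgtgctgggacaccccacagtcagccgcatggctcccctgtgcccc
BNIP3: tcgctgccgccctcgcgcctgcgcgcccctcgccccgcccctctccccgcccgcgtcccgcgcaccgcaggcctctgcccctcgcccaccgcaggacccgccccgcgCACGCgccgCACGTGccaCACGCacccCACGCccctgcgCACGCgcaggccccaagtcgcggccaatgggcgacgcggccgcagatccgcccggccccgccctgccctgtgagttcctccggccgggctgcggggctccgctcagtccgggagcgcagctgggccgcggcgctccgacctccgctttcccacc
EGLN1: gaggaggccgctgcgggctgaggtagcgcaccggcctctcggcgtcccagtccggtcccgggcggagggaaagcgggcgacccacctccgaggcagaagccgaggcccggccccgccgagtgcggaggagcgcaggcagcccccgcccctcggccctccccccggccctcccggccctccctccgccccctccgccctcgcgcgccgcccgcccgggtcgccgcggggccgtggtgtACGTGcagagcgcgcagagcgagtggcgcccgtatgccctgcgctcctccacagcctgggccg
EGLN3: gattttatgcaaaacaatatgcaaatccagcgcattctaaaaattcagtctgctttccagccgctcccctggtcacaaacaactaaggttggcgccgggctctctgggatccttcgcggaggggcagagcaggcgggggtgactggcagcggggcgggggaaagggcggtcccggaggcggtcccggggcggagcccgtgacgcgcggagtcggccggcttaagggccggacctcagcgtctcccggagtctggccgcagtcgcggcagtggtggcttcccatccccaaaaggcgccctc
The window of CA9 (chr9:35673678-35673977, plus strand) holds ACGTG on the strand opposite to the gene, from 18 to 14 bases before the start site. That of BNIP3 (chr10:131981874-131982173, minus strand) holds 6 matches, 2 of ACGTG and 4 of GCGTG, all between 143 and 100 bases before the start. That of EGLN1 (chr1:231422238-231422537, minus strand) holds ACGTG from 13 to 9 bases before it, and that of EGLN3 (chr14:33951025-33951324, minus strand), whose RefSeq start lies inside the longer GENCODE gene, holds neither motif. In all, 6 of the 10 windows held a match, 4 of ACGTG and 3 of GCGTG, and the other genes with a match were EGLN2, HIF1A and EPAS1. Of all 35116 promoters of this length in the RefSeq table, 21.4% held ACGTG, 36.5% held GCGTG and 48.4% held either. For the 21613 promoters of protein-coding genes, as all members are, these shares were 23.1%, 43.1% and 54.8%, so that the motif alone is common. These matches describe the letters and not bound sites.

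The label of the cells was checked against markers. All 9 epithelial and basal markers were at or above 1 TPM, from 14.6 TPM for EPCAM to 6612 TPM for KRT5. Of 10 markers of other cell types, 3 were at or above 1 TPM, COL1A1 at 4.96, CD14 at 1.96 and PECAM1 at 1.77 TPM. Another 3, CD3E and ALB among them, had 0 reads. These 10 summed to between 7.95 and 10.8 TPM in a replicate. TPM divides the reads of a gene by a transcript length and scales the result to 1000000 per replicate. Reads were recovered from TPM as whole numbers and came to 15273329, 15446347 and 11166546 on annotated genes. Replicate 3 gave 15.1% of its TPM to RN7SL1, a short structural RNA, beside 4.93% and 5.66% in replicates 1 and 2. Over 8804 genes averaging 10 TPM or more, replicate 3 was lower, with a median log2 ratio of -0.25 to replicate 1 and -0.24 to replicate 2, while replicates 2 and 1 differed by -0.01.

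Of the 10 HIF pathway genes, 9 were at or above 1 TPM, the cutoff for an expressed gene in the study's methods, and EGLN3 was below it. Over all 20046 protein-coding genes, 56.7% reached this cutoff by the mean, and 55.2% in every replicate. The 9 genes were at or above it in every replicate and EGLN3 was below it in every replicate, so that by deposited TPM no member lay on both sides, as 2.84% of protein-coding genes did. On the length of the canonical transcript, CA9 was at 0.998, 1.46 and 0.959 TPM and thus on both sides. The median of the 10 means was 25.1 TPM, beside 3.75 TPM over all 20046 protein-coding genes and 24.9 TPM over the 11360 of them at or above 1 TPM. From the highest deposited mean, the order was HIF1A, EPAS1, ARNT, VHL, BNIP3, EGLN1, VEGFA, EGLN2, CA9 and EGLN3. By deposited TPM the subunits led this order, and 2 of the targets, CA9 and EGLN3, closed it.

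**Figure D1:**
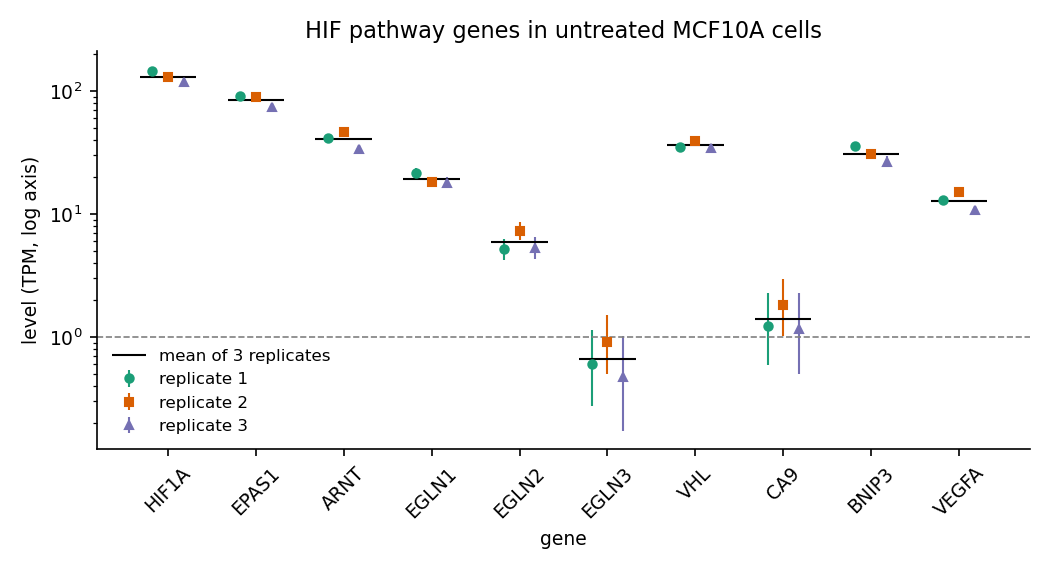
Level in TPM (log axis) of the 10 genes in each replicate, with exact 95% Poisson intervals of the reads as vertical bars and the mean of 3 replicates as a horizontal bar. HIF1A is highest at a mean of 131 TPM and EGLN3 lowest at 0.659 TPM, the only gene whose 3 points lie below the dashed line at 1 TPM.

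HIF1A encodes the alpha subunit found in most cell types (ENSG00000100644, chromosome 14 of hg38 from 61695513 to 61748259, plus strand). In the order of replicates 1, 2 and 3, which holds throughout, its levels were 146, 129 and 118 TPM, from 3031, 2752 and 2084 reads, with a mean of 131 ± 14.1 TPM (SD, n = 3). This mean was above that of 94.3% of protein-coding genes. EPAS1 encodes HIF-2 alpha, the second alpha subunit, best known from endothelium and kidney (ENSG00000116016, chromosome 2 from 46293667 to 46386697, plus strand). It was measured at 90.5, 89.2 and 73.6 TPM from 2450, 2484 and 1697 reads, with a mean of 84.4 ± 9.37 TPM (SD, n = 3), above 90.5% of protein-coding genes. The level of HIF1A was 1.61, 1.44 and 1.60 times that of EPAS1 in the same replicates, a mean log2 ratio of 0.63 ± 0.09 (SD, n = 3).
ARNT encodes the partner that both alpha subunits need to bind DNA and that oxygen does not destabilise (ENSG00000143437, chromosome 1 from 150809713 to 150876708, minus strand). It was measured at 41.6, 46.0 and 34.0 TPM from 1027, 1169 and 714 reads, with a mean of 40.5 ± 6.10 TPM (SD, n = 3). The summed level of HIF1A and EPAS1 was 5.69, 4.74 and 5.64 times that of ARNT. The other subunits were far lower. ARNT2, a paralog of ARNT known from neurons, had 2.45, 2.19 and 1.74 TPM, and ARNT exceeded it between 17.0 and 21.1 times in a replicate. HIF3A, a further alpha subunit whose short forms inhibit the others, had 1, 0 and 1 reads, which is under the limit of 3 reads used here for a count of 0.

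The EGLN genes encode the prolyl hydroxylases that sense oxygen. EGLN1, the main enzyme of this kind in most cells (ENSG00000135766, chromosome 1 from 231363751 to 231422287, minus strand), was measured at 21.5, 18.2 and 17.97 TPM from 491, 427 and 349 reads, with a mean of 19.2 ± 1.98 TPM (SD, n = 3). EGLN2 (ENSG00000269858, chromosome 19 from 40798996 to 40808434, plus strand) was measured at 5.17, 7.31 and 5.33 TPM from 106, 154 and 93 reads, with a mean of 5.93 ± 1.19 TPM (SD, n = 3). EGLN3, itself strongly induced in hypoxia in many cells (ENSG00000129521, chromosome 14 from 33924227 to 34462774, minus strand), was measured at 0.600, 0.907 and 0.470 TPM from 9, 14 and 6 reads, with a mean of 0.659 ± 0.225 TPM (SD, n = 3). By these values EGLN1 was the highest and EGLN3 the lowest of the family in every replicate, with EGLN1 between 2.49 and 4.16 times EGLN2 by deposited TPM and between 1.34 and 2.24 times on canonical lengths. Neither ratio allows for the exons that EGLN1 and EGLN2 share with other genes, given below, so their order in the cells is uncertain.
For EGLN3 a value of 1 TPM stood for 15.01, 15.4 and 12.8 reads, and the exact 95% Poisson intervals of the separate replicates reached up to 1.14, 1.52 and 1.02 TPM. With the 29 reads of all replicates together, the interval was 0.449 to 0.964 TPM and lay below the cutoff. These intervals cover counting error only.
EGLN1 and EGLN2 share exons with other annotated genes. Of the canonical transcript of EGLN1, 69.3% is also exon of ENSG00000287856, an annotated gene on the same strand that had 0, 0 and 1 reads. For EGLN2 it is 95.8%, shared with the readthrough gene RAB4B-EGLN2 and with ENSG00000268797, both at 0 reads. All 342 protein-coding genes whose every exonic base is shared in this way had 0 reads, beside 25.3% of the 17057 genes whose canonical transcript shares no base. With the reads divided only by the unshared bases of the longest transcript, 1331 of 4335 for EGLN1 and 2959 of 3894 for EGLN2, the means were 62.6 ± 6.45 and 7.80 ± 1.56 TPM (SD, n = 3 each), a setting added after the values were seen. For EGLN2 this longest transcript is not the canonical one, of which 95.8% is shared. Reads of that canonical form are thus largely not counted here, and none of these values may give the level of EGLN2 in the cells.
The other oxygen-dependent hydroxylases of the pathway were also measured. HIF1AN, the asparagine hydroxylase that blocks coactivator binding, had 21.0, 18.8 and 17.7 TPM, with a mean of 19.2 ± 1.70 TPM (SD, n = 3). By deposited TPM HIF1AN and EGLN1 did not differ beyond their spread, with a mean log2 ratio of EGLN1 over HIF1AN of 0.00 ± 0.04 (SD, n = 3) and EGLN1 the lower in replicate 2. With merged exons EGLN1 was the lower in every replicate, at a mean log2 ratio of -0.20 ± 0.04 (SD, n = 3). Neither length allows for the exons that EGLN1 shares, while the canonical transcript of HIF1AN shares no base with another gene. P4HTM, a transmembrane prolyl hydroxylase, had a mean of 3.38 ± 0.564 TPM (SD, n = 3).

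VHL encodes the substrate receptor that binds hydroxylated alpha subunits (ENSG00000134086, chromosome 3 from 10141778 to 10153667, plus strand). It was measured at 35.1, 39.1 and 34.5 TPM from 837, 957 and 700 reads, with a mean of 36.2 ± 2.47 TPM (SD, n = 3). By deposited TPM its CV between replicates was 6.82%, the lowest of the 10 genes, but EPAS1 was closer to its mean once replicates were scaled by their median ratio. Of the 2736 protein-coding genes within 1.5-fold of its mean, 16.8% had a lower SD of log2(TPM + 1). VHL lay next to ARNT and BNIP3 in the order of deposited levels and there did not differ from either beyond the spread. ARNT was above VHL in replicates 1 and 2 and below it in replicate 3, and VHL was below BNIP3 in replicate 1 and above it in the other replicates. Other lengths changed both calls, with a mean log2 ratio of VHL over BNIP3 of -0.72 on canonical lengths and 0.50 with merged exons, and of ARNT over VHL of -0.16 with merged exons. The 7 other pairs of neighbours had the same order in every replicate by deposited TPM, with a mean log2 ratio larger than its SD. No p-value is given for these orders, since an exact two-sided sign permutation test of 3 pairs cannot go below 0.25.
All 6 listed genes of the VHL ubiquitin ligase were at or above 1 TPM, with a median of 41.7 TPM. By deposited TPM RBX1, its RING subunit, was highest at 78.5 ± 4.35 TPM, followed by the adaptor ELOB at 69.7 ± 2.003 TPM and the scaffold CUL2 at 47.1 ± 4.80 TPM (SD, n = 3 each). On canonical lengths ELOB was highest at 211 TPM, RBX1 had 103 TPM, and CUL2, at 43.1 TPM, was below NEDD8 and ELOC.

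The levels of the 3 target genes outside the oxygen-sensing machinery differed widely. BNIP3, a mitochondrial receptor for mitophagy (ENSG00000176171, chromosome 10 from 131967684 to 131981967, minus strand), was measured at 35.5, 30.8 and 26.5 TPM from 573, 510 and 364 reads, with a mean of 30.9 ± 4.502 TPM (SD, n = 3). Its paralog BNIP3L had a mean of 11.9 ± 0.734 TPM (SD, n = 3), and BNIP3 was the higher by 2.82, 2.76 and 2.23 times, or by 5.60, 5.49 and 4.43 times on canonical lengths. The annotation holds 44 pseudogenes of BNIP3, of which 42 had 0 reads and none more than 6 in a replicate.
VEGFA, the growth factor that drives vessel growth (ENSG00000112715, chromosome 6 from 43770184 to 43786487, plus strand), was measured at 12.9, 14.9 and 10.7 TPM from 828, 985 and 583 reads, with a mean of 12.9 ± 2.13 TPM (SD, n = 3). By deposited TPM it was below 2 genes of its family. VEGFB, which is not known as a HIF target, had 49.4, 54.2 and 39.4 TPM, and VEGFC, a lymphatic growth factor, had 21.6, 24.2 and 19.7 TPM. PGF was at 1.73 ± 0.577 TPM (SD, n = 3). Of the receptors, NRP1 at 37.4 ± 4.60 TPM and NRP2 at 16.1 ± 3.62 TPM (SD, n = 3 each) were above 1 TPM, and the kinase receptor KDR was at 0.140 ± 0.0675 TPM (SD, n = 3).
CA9, a membrane carbonic anhydrase that acidifies the medium (ENSG00000107159, chromosome 9 from 35673928 to 35681159, plus strand), was measured at 1.24, 1.80 and 1.16 TPM from 10, 15 and 8 reads, with a mean of 1.40 ± 0.351 TPM (SD, n = 3). All 3 replicates were above 1 TPM, but the interval from the 33 reads together was 0.975 to 1.99 TPM, with its lower bound just under the cutoff. Of its canonical transcript, 36.9% is also exon of ARHGEF39 on the opposite strand, a gene at 11.2 TPM, and whether counting used strand is not given in the sources used here. Of 61 protein-coding genes with at least 80% shared on the opposite strand only, 24.6% had 0 reads. This share was 28.8% of the 12459 genes with no base shared on either strand. Genes with such an overlap can still hold reads on unshared bases, so these shares cannot show whether counting used strand. CA9, at 36.9%, is outside that group, and what the overlap does to its reads was not tested. CA12, another membrane carbonic anhydrase, was measured at 90.6, 84.6 and 73.6 TPM, between 46.9 and 73.3 times CA9 in a replicate. Of 15 listed carbonic anhydrases, 6 were at or above 1 TPM, with CA13 (11.2 ± 0.118 TPM), CA2 (7.46 ± 1.37 TPM), CA11 (2.85 ± 0.679 TPM) and CA5B (2.66 ± 0.387 TPM; SD, n = 3 each) between CA12 and CA9, and 5 had 0 reads in every replicate.

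**Figure D2:**
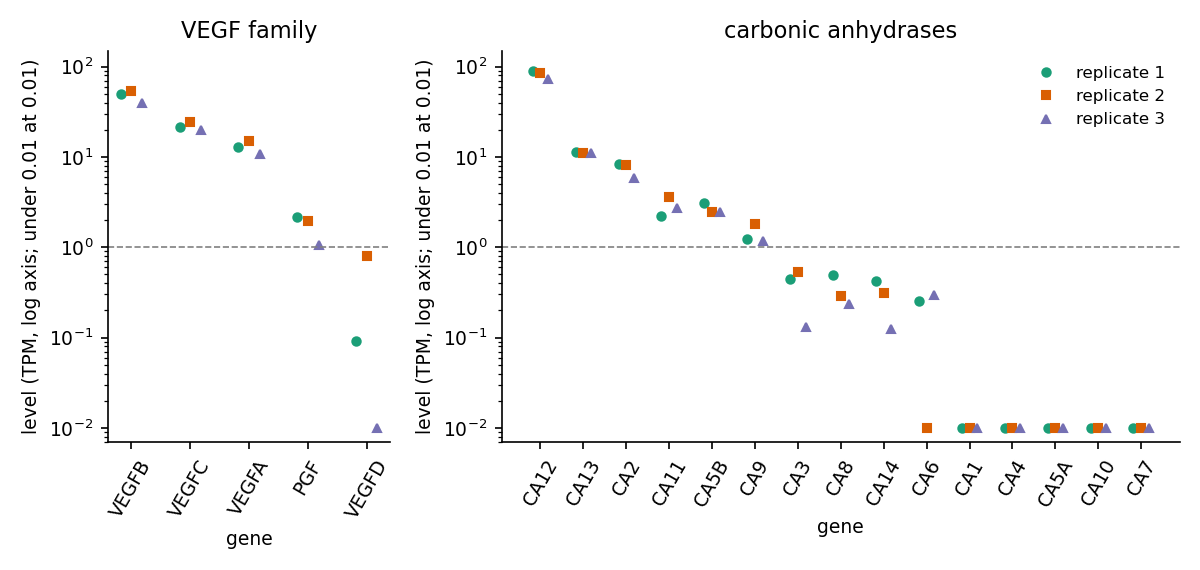
Level in TPM (log axis) of each gene of the VEGF family and of 15 carbonic anhydrases in replicates 1, 2 and 3, with 1 TPM dashed and values under 0.01 TPM drawn at 0.01. VEGFA lies below VEGFB and VEGFC, and CA9 lies close to the dashed line, far below CA12 at a mean of 82.9 TPM.

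Gene length bears on the order of these levels. The deposited values used the longest annotated transcript of each gene, as the recovery of whole reads showed. For VEGFA this transcript has 12167 bases, and the canonical one, which GENCODE marks as representative, has 3609. For BNIP3 these lengths were 3066 and 1542 bases, and for EGLN2 3894 and 2100. With TPM recomputed on canonical lengths, protein-coding genes at or above 1 TPM shifted by a median log2 ratio of -0.29. Relative to that shift, VEGFA was 3.37 times, BNIP3 1.99 times and EGLN2 1.85 times its deposited level, and each of the other 7 genes between 0.993 and 1.05 times. These ratios do not allow for shared exons. For EGLN1, among those 7, the mean was 62.6 TPM with the unshared bases of its longest transcript. VEGFA then had a mean of 35.4 ± 5.50 TPM and BNIP3 50.2 ± 6.80 TPM (SD, n = 3 each). Both were then above ARNT at 33.0 and VHL at 30.4 TPM, so that the subunits no longer filled the first places. VEGFA moved above EGLN1, from a mean log2 ratio of EGLN1 over VEGFA of 0.59 to -1.16, and above VEGFC, which was 1.62 to 1.84 times VEGFA as deposited and 0.478 to 0.545 times it on canonical lengths. VEGFB stayed above VEGFA, but by 1.07 to 1.13 times in place of 3.63 to 3.82 times. HIF1A, EPAS1, CA9 and EGLN3 kept their places at the ends of the order.

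**Figure D3:**
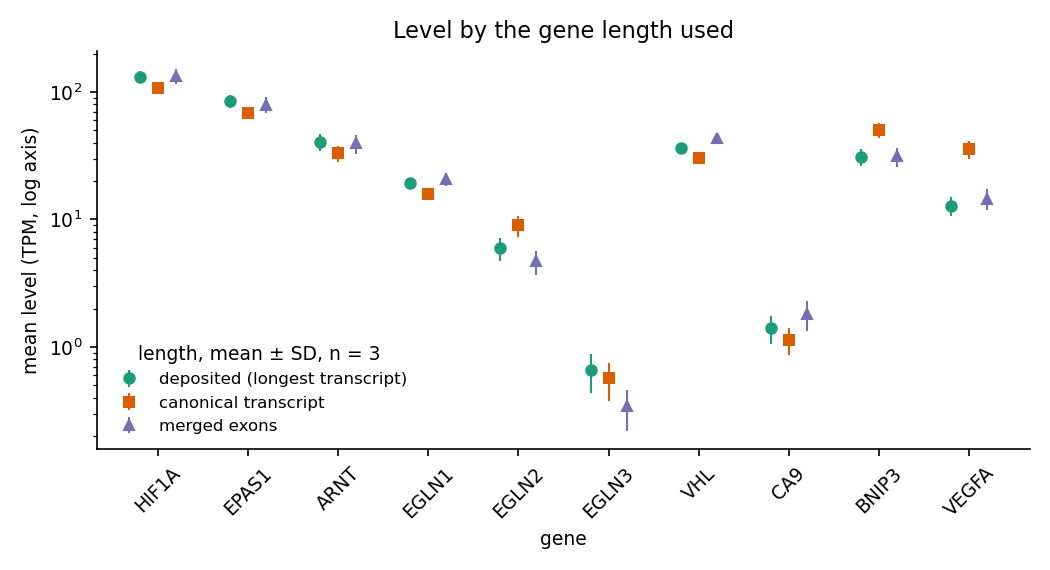
Mean level in TPM (log axis; bars, SD of 3 replicates) of the 10 genes as deposited, with the length of the canonical transcript and with merged exons. VEGFA rises from 12.9 to 35.4 TPM and BNIP3 from 30.9 to 50.2 TPM on canonical lengths, while HIF1A falls from 131 to 107 TPM with the shift of all genes.

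To see which members varied more than the counting of reads alone gives, the reads of each gene were compared with equal TPM in all replicates by a chi-square test, adjusted over 15802 genes by the Benjamini-Hochberg method. The test covers the replicates of 1 condition and says nothing of a treatment. It called 8 of the 10 genes, all but CA9 and EGLN3, beside 54.3% of all genes tested. All 7 members averaging 10 TPM or more were lowest in replicate 3, as were 82.8% of the genes at that level. After the replicates were scaled by the median ratio over such genes, 4 of the 10 were called, beside 31.2% of all genes. These were HIF1A (adjusted p = 0.000646), VEGFA (0.00257), ARNT (0.0160) and VHL (0.0210) in the chi-square test.
On that scale ARNT and VEGFA were highest in replicate 2, by a log2 ratio to their mean of 0.12 and 0.15, and HIF1A was lowest there at -0.09. EPAS1, with 6631 reads in all, stayed within a log2 ratio of -0.03 to 0.02 of its mean, and its adjusted p in the chi-square test was 0.654. The largest log2 ratios were those of the genes with the fewest reads, 0.41 for EGLN3 and 0.30 for CA9 in replicate 2, where counting error alone gives a CV of 32.2% and 30.2%. Over the 10 genes the median SD of log2(TPM + 1) was 0.20, beside 0.16 for protein-coding genes at or above 1 TPM.

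**Figure D4:**
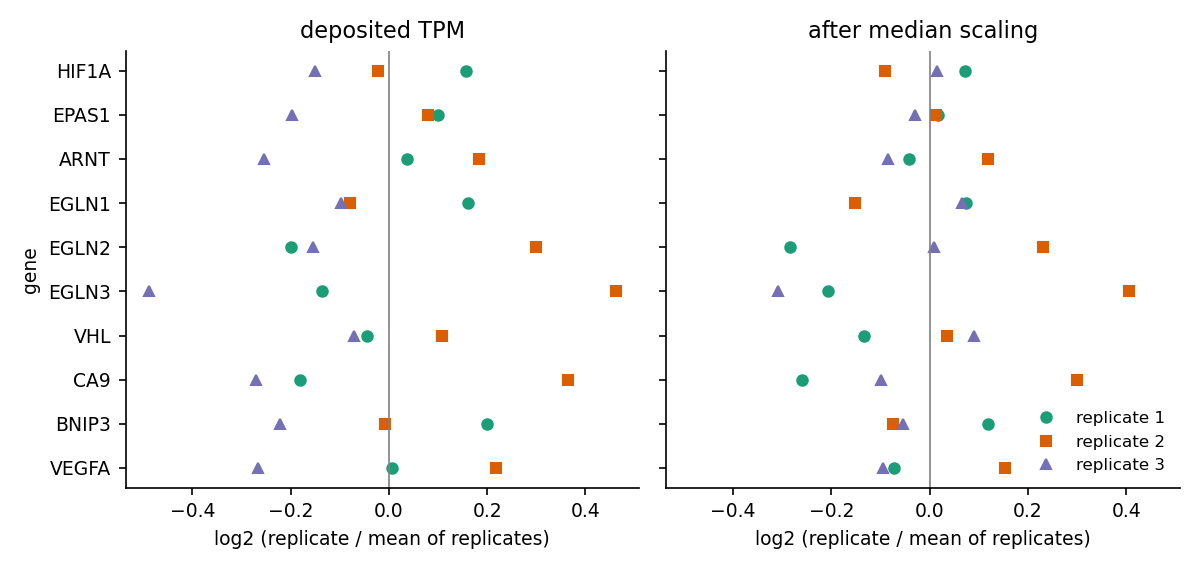
Log2 ratio of each replicate to the mean of the 3 replicates for the 10 genes, as deposited and after scaling by the median ratio over genes with at least 10 TPM. As deposited, replicate 3 is lowest for 9 of the 10 genes, and after scaling EPAS1 lies closest to 0.

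The lists of the pathway, its targets and the families of its members, 12 in all, hold 103 genes with the 10 members included. Of these, 79 (76.7%) were at or above 1 TPM, beside 56.7% of all protein-coding genes, and 7 had 0 reads. Their median was 14.7 TPM, beside 3.75 TPM over all protein-coding genes. Earlier results of these data were known when the genes were listed, so this contrast is not a test of the pathway. The lists hold genes known as targets in other cells, and no HIF activity was measured. Of 16 targets of glucose uptake and glycolysis, 15 were at or above 1 TPM, with a median of 75.9 TPM, and the enzymes ENO1, LDHA and TPI1 led at 3187 ± 280, 2371 ± 218 and 885 ± 63.8 TPM (SD, n = 3 each). In the same cells CA9 was lower than LDHA by a factor between 1250 and 2121 in a replicate by deposited TPM, and between 482 and 818 with merged exons. ENO2, the neuronal enolase and the member of that list below 1 TPM, had 3, 13 and 6 reads.
Of the 9 mitochondrial targets, 7 were at or above 1 TPM. By deposited TPM LONP1, a mitochondrial protease, was highest at 94.9 ± 16.0 TPM, above AK4 at 39.4 ± 4.45, HIGD1A at 39.2 ± 0.733 and BNIP3 at 30.9 ± 4.502 TPM (SD, n = 3 each), while on canonical lengths BNIP3, at 50.2 TPM, was above AK4 at 32.9 and HIGD1A at 32.1 TPM. NDUFA4L2 had 0.476, 1.08 and 0.373 TPM from 3, 7 and 2 reads, on both sides of the cutoff, and COX4I2 had 0 reads. Both encode subunits linked to the respiratory chain in hypoxia.
Of the 10 secreted and vascular targets, 6 were at or above 1 TPM, among them ANGPTL4 at 88.8 ± 11.04 and STC2 at 35.2 ± 6.20 TPM (SD, n = 3 each), both above VEGFA by deposited TPM. On canonical lengths STC2, at 28.8 TPM, was below VEGFA. EPO, the hormone through which HIF was found, had 1 read in replicate 1 and 0 in the others, and ANGPT2 had 0. All 6 matrix enzymes were at or above 1 TPM, with PLOD1 at 137 ± 16.7, PLOD2 at 97.3 ± 9.38 and P4HA1 at 87.6 ± 7.19 TPM (SD, n = 3 each), and PLOD2 was above PLOD1 on canonical lengths. Of the 15 regulatory and stress targets, which include EGLN1 and EGLN3, 12 were at or above it, led by DDIT4 at 388 ± 62.5, TFRC at 144 ± 13.9 and NDRG1 at 111 ± 10.9 TPM (SD, n = 3 each), and EGLN3, RORA and MIR210HG were below it.

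**Figure D5:**
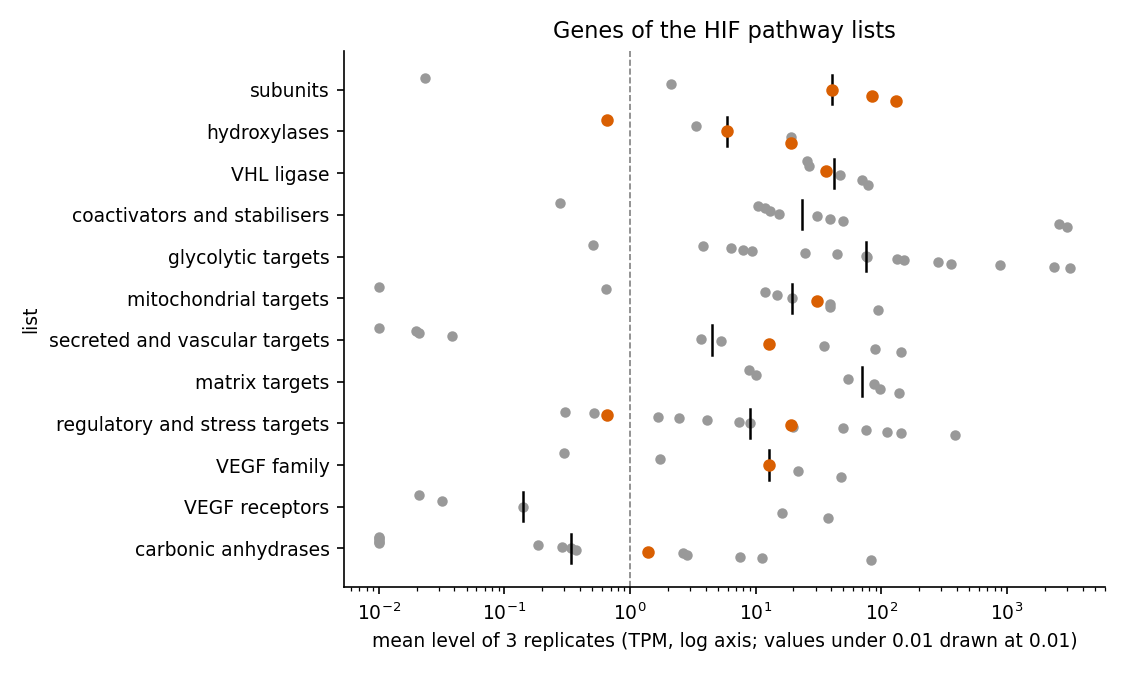
Mean level of 3 replicates in TPM (log axis) of every gene in the 12 lists, with the 10 HIF pathway genes in orange, other genes in grey, the median of each list as a black bar and 1 TPM dashed. The glycolytic list has a median of 75.9 TPM and the carbonic anhydrases of 0.340 TPM. EGLN3, drawn with the hydroxylases and with the regulatory and stress targets, is the only orange gene left of the dashed line.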

How the data were processed

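RNA of 3 replicates of MCF10A cells was depleted of ribosomal RNA, and by the methods of the study reads were mapped to hg38 and counted with Seq2science. The submitters' processing notes name STAR, fastp and MultiQC and the builds hg38 and GRCh38.p14, and the annotation release and the strand setting are not given in the sources used here. The authors deposited TPM values of 62754 genes, which sum to 1000000 in each replicate, and GENCODE release 44 holds 62700 of them.

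TPM times the length of the longest transcript, less 1 base per exon, divided by its smallest value above 0, gave whole numbers for 100% of values within 0.001, taken as reads. TPM keeps no depth of its own, so the totals rest on that step being 1 read. Genes with at least 15 reads were tested between replicates by a chi-square test with 2 degrees of freedom and Benjamini-Hochberg adjustment at 0.05. The test was tried on simulated reads with known changes. Neighbours in the order of levels were said not to differ where the mean log2 ratio was within 1 SD of 0 or the replicates differed in sign.

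The members and the lists were chosen with earlier results of these data known. In the text, all 10 members are named, family genes at or above 1 TPM, and in each other list the 3 highest genes, genes on both sides of 1 TPM and genes with 0 reads; 5 carbonic anhydrases are given as a count, and 1 secreted target is not reported here. BNIP3L, P4HTM, HIF3A, ENO2, EPO, RORA, MIR210HG, RACK1, CREBBP, EP300, ALDOA, VEGFD, the marker genes and the genes that overlap members were named after their values were seen. Alternatives covered the cutoff, the summary of replicates, the pseudocount, the filter, the scaling, gene length and leaving out each replicate. The work ran under Python 3.11.15 with scipy 1.17.1, pandas 2.3.3, numpy 2.4.6 and, for plots, matplotlib 3.10.9. Promoters are those of RefSeq.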

Additional observations from a re-analysis of the deposited data

How the results depend on the processing

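No paired analysis was possible because the series has 1 group. In count, members at or above 1 TPM were 9 under every alternative except the cutoff, with 10 at 0.5 TPM and 8 at 2 TPM, where CA9 is lost. The number of listed genes lay between 76 and 83. The median level of the members, 25.1 TPM, was 30.9 TPM with nuclear protein-coding genes summing to 1000000 and 31.7 TPM with canonical lengths, and 23.4 to 26.5 TPM with 1 replicate left out. Of the 45 pairs of members, 40 kept their order with canonical lengths and 44 with merged exons. All 45 kept it on the protein-coding scale and with 1 replicate left out. With unshared bases, the setting added after the values were seen, the order did change. EGLN1, at 62.6 TPM, was then above ARNT at 40.3, VHL at 36.2 and BNIP3 at 30.9 TPM. The log2 ratio of EGLN1 over VEGFA reversed from 0.59 to -1.16 with canonical lengths, and that of VHL over BNIP3, not called as deposited, went from 0.24 to -0.72. The median SD of log2(TPM + 1), 0.20, was 0.12 on the protein-coding scale and 0.14 to 0.23 with 1 replicate left out, the lowest without replicate 3. The number of members called in the chi-square test, 8, was 4 after median scaling and 5 on the protein-coding scale. It was 7 with no filter on reads, where VHL was not called. With 1 replicate left out it was 3 to 6, the lowest without replicate 3. The cause of these shifts was not tested. Depth limits CA9 and EGLN3, with 33 and 29 reads in all.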

Other observations

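In a list of 10 genes that act on HIF proteins or on their regulators, in either direction, 9 were at or above 1 TPM. The chaperones HSP90AA1 and HSP90AB1, which hold HIF-1 alpha in a stable form, were at 3008 ± 345 and 2575 ± 251 TPM, and the ubiquitin ligase SIAH2, which acts on EGLN proteins, was at 49.4 ± 7.53 TPM (SD, n = 3 each). The histone acetyltransferases CREBBP and EP300 were at 39.04 ± 8.001 and 15.3 ± 4.08 TPM (SD, n = 3 each), both highest in replicate 2 and lowest in replicate 3.

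RACK1, the gene of that list below 1 TPM, encodes a ribosomal protein and is known as an abundant transcript, but had 2, 3 and 2 reads, although its canonical transcript shares no base with another annotated gene on the primary assembly. Why it had so few reads was not tested, and its value here may not give its level in the cells. The antisense transcripts of HIF1A had at most 2 reads in a replicate, HIF1A-AS1 with 0, 1 and 2 and HIF1A-AS3 with 2, 2 and 0. HIF1AP1, a short pseudogene of HIF1A, had 3, 4 and 0 reads, which by its length gave 3.27, 4.24 and 0 TPM. VEGFD had 1, 9 and 0 reads in replicates 1, 2 and 3. ALDOA, the aldolase of muscle and most other tissues, had 60, 97 and 87 reads, and ENSG00000285043, on the same strand, covers 89.8% of the bases of its canonical transcript.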
